A study of Mus musculus with 2 samples.

Results

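The miR-379 to miR-410 cluster is a row of miRNA genes on the plus strand of mouse chromosome 12. Its members were taken as all precursor entries between 110947000 and 110988000 of mm9 in the small RNA tables of E9.5 hearts, and entries that overlap at 1 place were counted as 1 locus. This gave 32 loci of 563 in the whole series, 31 in replicate 1 and 31 in replicate 2, with 30 listed in both. The 2 samples were replicates of a single group, hearts of wild type C57BL/6 embryos at E9.5, with no treatment and no control group, so the comparisons are between loci, between arms and between the replicates. Total RNA of whole hearts was sequenced as small RNA, and miRDeep2 reported the reads on the mature, loop and star parts of each known precursor. Replicate 1 held 4490698 mature reads over its 517 loci and replicate 2 held 4393243 over 476 loci. Nothing in the sources used here says whether the replicates came from separate litters or pools, so tests between them measure only the spread between these libraries, which may be technical.

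The cluster lies in the imprinted Dlk1-Dio3 domain, whose miRNAs are made from the maternal chromosome together with long non-coding RNAs such as Mirg. Each hairpin in the shared primary transcript is cut out by Drosha with DGCR8, and Dicer then leaves a duplex of a 5p and a 3p arm. The arm kept by an Argonaute protein is the mature miRNA, the other is the star strand, and bases 2 to 8 of the kept arm, the seed, choose its targets. The cluster is best known from placental mammals, where it is expressed in embryonic tissues and brain. A miRNA labelled heart can come from any cell type of that organ, and more cells of a type and more miRNA per cell cannot be told apart in bulk samples. The heart label was checked by marker miRNAs. The muscle miRNA miR-1a held 10.98% and 11.47% of mature reads at each of its 2 loci, miR-133a held 1.35% and 1.30%, and miR-499 held 0.184% and 0.161%. The other muscle miRNAs were lower, with miR-208b at 0.0418% and 0.0360% and miR-208a at 860 reads in replicate 1 and not listed in replicate 2. The neural marker miR-124 had 2 reads in replicate 1 and was not listed in replicate 2, miR-9 stood at 0.00528% and 0.00405%, miR-219a at 0.00196% and 0.00241%, and no locus of miR-137 was listed. The liver marker miR-122 held 0.0464% and 0.0606%, more than miR-208b in both replicates, and the blood markers miR-451a 0.00285% and 0.00289%, miR-144 0.00166% in replicate 2 only, and no miR-223 was listed.

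The sequences of the 10 highest loci and of miR-300 are shown first, because most reads of the cluster lay on them. Each is the arm with more reads as the deposited tables give it, written 5′ to 3′ with the seed in capitals. From the first locus to the last they are:
miR-379-5p: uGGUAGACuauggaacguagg
miR-411-5p: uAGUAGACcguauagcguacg
miR-323-3p: cACAUUACacggucgaccuc
miR-758-3p: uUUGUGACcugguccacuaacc
miR-543-3p: aAACAUUCgcggugcacuucu
miR-495-3p: aAACAAACauggugcacuucu
miR-300-3p: uAUGCAAGggcaagcucucu
miR-381-3p: uAUACAAGggcaagcucucug
miR-134-5p: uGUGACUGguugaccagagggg
miR-541-5p: aAGGGAUUcugauguuggucacac
miR-409-3p: gAAUGUUGcucggugaacccc

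Each of the 32 loci had its own seed on the arm with more reads. Among the mature parts outside the cluster, 1 of the 32 seeds recurred, that of miR-410-3p in miR-344d entries with 44 and 55 mature reads. The closest pair in the cluster was miR-300-3p and miR-381-3p, which differ over 20 bases only by G4A, counted from 1 at the 5′ end with the base of miR-300-3p first. This base lies in the seed. Shared seeds appeared once both arms were read. Among the 64 arm sequences 7 seeds were held by 2 arms each. The star strands miR-379-3p and miR-411-3p shared the seed AUGUAAC, the star strands miR-543-5p and miR-495-5p shared AAGUUGC, and so did miR-376c-5p and miR-376b-5p with UGGAUAU, miR-494-5p and miR-410-5p with GGUUGUC, and miR-380-5p and miR-758-5p with UGGUUGA. The last pair rests on a predicted sequence, since miR-758-5p had 0 reads, and the starts that the tables give miR-758-5p and miR-543-5p lie 1 nt before those of RefSeq, so these matches hold for the table's starts only. Only 2 of the 7 shared seeds were on a main arm. The seed of miR-381-3p recurred on miR-539-3p, which had 6 and 5 reads, and the seed of miR-379-5p recurred on miR-1193-5p, which had 80 and 82.

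Whole hairpins are shown for 6 loci that differ in how their reads fell on the arms, with the arm that held more reads in capitals:
miR-379: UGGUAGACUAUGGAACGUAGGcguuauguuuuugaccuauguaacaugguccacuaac
miR-381: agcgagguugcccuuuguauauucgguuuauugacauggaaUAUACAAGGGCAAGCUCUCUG
miR-485: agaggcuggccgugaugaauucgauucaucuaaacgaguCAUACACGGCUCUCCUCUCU
miR-541: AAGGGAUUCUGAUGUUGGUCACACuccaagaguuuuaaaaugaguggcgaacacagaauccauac
miR-409: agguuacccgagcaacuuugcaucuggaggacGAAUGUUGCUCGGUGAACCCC
miR-369: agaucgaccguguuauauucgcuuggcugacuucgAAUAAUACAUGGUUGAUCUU

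The hairpins resembled each other at the 5′ end. The letters GGU lay within the first 6 bases of the 5p sequence in 16 of 32 loci, 50% of the cluster, against 60 of 531 loci outside it, 11.3%, and 3 of the 13 loci further upstream in the same domain, 23.1%. The longer run GGUUG, which contains GGU, stood there in 4 of 32 cluster loci, 12.5%, and in 2 of 531 others, 0.377%. Both were searched on the strand of the hairpin only, and the letters were chosen after the sequences were seen. The main arm began with U in 14 loci, with A in 12, with C in 3 and with G in 3. By the part miRDeep2 called mature, A was the first base in 40.6% of cluster loci and in 25.8% of all 563 loci, and U in 43.8% and 49.6%. The main arms were 19 to 25 nt long with a median of 21 nt.

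The cluster spanned 34.7 kb, from the first locus, miR-379, at chr12:110947275-110947332 to the last, miR-410, at chr12:110981939-110981993. All 36 of its entries were identical in sequence to the NCBIM37 assembly, which mm9 names. Gaps between neighbouring listed precursors had a median of 623 bp, and 19 of the 31 gaps were under 1000 bp. The shortest was 70 bp between miR-679 and miR-1193, and the longest was 4754 bp between miR-544 and miR-134. In the GENCODE vM1 annotation 26 of the 32 loci lay on annotated miRNA genes. Of the 32 miRNA genes annotated in the window, 26 overlapped a listed locus. Gaps and neighbours are therefore those among the listed loci, and an unlisted hairpin may lie between them. The lincRNA Mirg runs from 110973191 to 110987665 in this annotation, and 26 of the 32 loci, including all from miR-379 to miR-485, lay upstream of its annotated start. Of the 6 within Mirg, miR-496a, miR-541, miR-409 and miR-369 were intronic. The whole 55-nt precursor of miR-410 lay in a Mirg exon, while miR-412 shared 3 of its 57 bases with an exon. These 6 loci held 24.8% of the cluster's mature reads in replicate 1 and 28.3% in replicate 2.

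In total 299989 mature reads of replicate 1 and 275538 of replicate 2 fell on the cluster. Its share of all mature reads was 6.68% in replicate 1 (95% Wilson interval 6.66% to 6.70%) and 6.27% in replicate 2 (6.25% to 6.29%), a mean of 6.48% ± 0.29 (SD, n = 2). These intervals cover counting error only, since PCR reads without molecular identifiers are not independent molecules. The gap between the replicates came with 1 locus: over the 30 loci listed in both, the share of all mature reads was 6.26% and 6.27%. That locus was miR-300, which had 19069 mature and 25 star reads in replicate 1 and was not listed in replicate 2. The other locus listed in a single replicate was miR-544, with 4 mature and 2 star reads in replicate 2. When each mature sequence of the table was counted a single time, the cluster share was 8.08%, because repeated loci elsewhere, such as those of miR-1a, add to the total with the same reads.

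Reads were spread very unevenly along the cluster. The highest locus was miR-381-3p, with 87372 mature reads in the first library and 76801 in the second, or 1.85% ± 0.14 of all mature reads (SD, n = 2), rank 14 of the 430 loci listed in both replicates. miR-541-5p, the miRNA that the study followed for its effect on cardiac and vascular genes, came next in the cluster with 52269 and 53743 reads, 1.19% ± 0.04 (SD, n = 2), rank 19. The values of these loci did not overlap, and their order was the same in both libraries.

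miR-379-5p, the first locus, held 30072 and 23491 mature reads, and its neighbour miR-411-5p held 21680 and 26292. Their shares of 0.602% ± 0.095 and 0.541% ± 0.082 (SD, n = 2) overlapped, and their order changed between the replicates. miR-134-5p, known in neurons as a regulator of dendritic spines, held 17787 and 18664 reads, a share of 0.410% ± 0.020 (SD, n = 2). miR-409-3p, in an intron of Mirg, held 16648 and 18641 reads, 0.398% ± 0.038 (SD, n = 2), so that its range overlapped that of miR-134-5p.

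The next 4 loci stood lower. miR-758-3p had 9639 and 10243 mature reads, a share of 0.224% ± 0.013. miR-543-3p had 7560 and 8690 reads, 0.183% ± 0.021, and miR-323-3p had 7056 and 8341 reads, 0.173% ± 0.023 (SD, n = 2). The ranges of miR-543-3p and miR-323-3p overlapped, though miR-543-3p was higher in each replicate. miR-495-3p followed with 5740 and 5878 reads, 0.131% ± 0.004, below the range of miR-323-3p. With 19069 reads, miR-300-3p stood in replicate 1 between miR-411-5p and miR-134-5p.

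The 5 loci with the highest mean share among those listed in both replicates held 69.7% and 72.2% of the cluster's mature reads, a mean of 71.0% ± 1.8 (SD, n = 2). The highest 10 of each replicate, which in replicate 1 include miR-300, held 89.7% and 91.0%. In both libraries 3 loci sufficed for 50% of the reads. At the other end, 9 of the 30 loci stayed under 1000 mature reads in both replicates. The lowest of the loci listed in both was miR-376a-5p, with 149 and 146 reads, so that the span from the lowest to the highest locus was 586-fold in replicate 1 and 526-fold in replicate 2. The median locus of the cluster still had 2000.5 and 1802 mature reads, against 322 and 339.5 over all loci listed in both replicates, and 10 cluster loci were among the 100 highest of those 430. The cluster makes up 6.98% of these loci.

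Level did not follow position. Across the 30 loci the Spearman coefficient of share with position was -0.24, a description over loci that share the same libraries. Loci next to each other in the list could differ widely. miR-381 held 126-fold and 106-fold the mature reads of miR-487b, which lies 455 bp downstream. miR-541 had 283-fold and 262-fold those of miR-496a, the nearest listed locus upstream, also in Mirg, at a distance of 3234 bp. miR-134 had 81.2-fold and 63.5-fold those of miR-668, at 527 bp. Loci nearer to each other also differed, as miR-323 had 20.05-fold and 27.9-fold the reads of miR-1197, 107 bp away, and miR-409 had 13.7-fold and 14.2-fold those of miR-412, 78 bp away. By contrast miR-412 and miR-369, 71 bp apart, differed by 1.19-fold and 1.16-fold. The order of loci was nearly the same in the replicates, with a Spearman coefficient of 0.996 over the 30 loci.

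**Figure D1:**
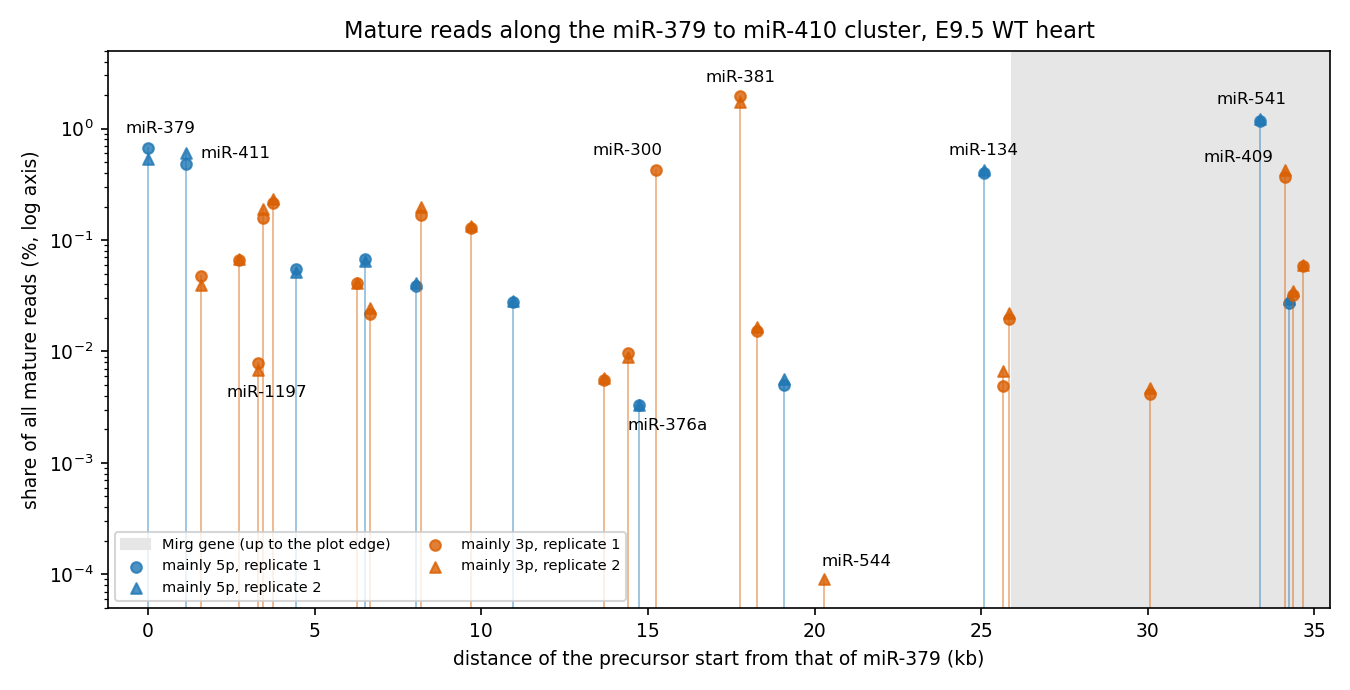
Share of all mature reads (%, log axis) of each locus against the distance of its precursor from miR-379 (kb), with 1 circle for replicate 1 and 1 triangle for replicate 2, coloured by the arm with more reads. High loci such as miR-381 and miR-541 stand beside loci over 100-fold lower, and miR-300 and miR-544 have a point for 1 replicate only. For miR-485 the share is that of its 5p reads, which miRDeep2 called mature.

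Arm choice was mixed along the cluster. Of 31 loci with at least 10 reads on both arms together, 11 had more reads on the 5p arm and 20 on the 3p arm. The 5p loci were thus 35.5% of the cluster, against 47.6% of the 471 such loci of the whole table and 3 of 12, 25.0%, of the loci upstream in the same domain. The 5p loci were miR-379, miR-411, miR-329, miR-679, miR-666, miR-667, miR-376a, miR-539, miR-134, miR-541 and miR-412. They alternated with 3p loci rather than lying at 1 end, and closely related hairpins split, as miR-376a had mainly 5p reads and its neighbours miR-376b and miR-376c mainly 3p reads. By reads rather than loci the arms were closer to even, since the 5p arm held 44.7% of arm reads in replicate 1 and 48.4% in replicate 2.

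The tables gave all 32 loci a name ending in 5p. For 20 of them they stated that the reads lay on the opposite, 3p arm: miR-299a, miR-380, miR-1197, miR-323, miR-758, miR-494, miR-1193, miR-543, miR-495, miR-376c, miR-376b, miR-300, miR-381, miR-487b, miR-544, miR-668, miR-496a, miR-409, miR-369 and miR-410. The remaining 12 had the 5p arm as the mature part. No locus listed in both replicates changed its mature arm between them, 30 of 30, and the mature sequence was identical in all 30.

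In miR-485 the part called mature held fewer reads than the star. Its 5p arm had 874 reads in replicate 1 and 973 in replicate 2, while its 3p arm had 1197 and 1426. The 5p percentage was 42.2% (95% Wilson interval 40.1% to 44.3%) and 40.6% (38.6% to 42.5%), so that both libraries lay below 50%. This was the only cluster locus where this happened. A second entry overlaps the same 5p bases and extends in the other direction. It listed the same 874 and 973 reads with none on its star, 57 and 70 on its loop and a miRDeep2 score of -2.6 in both tables.

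**Figure D2:**
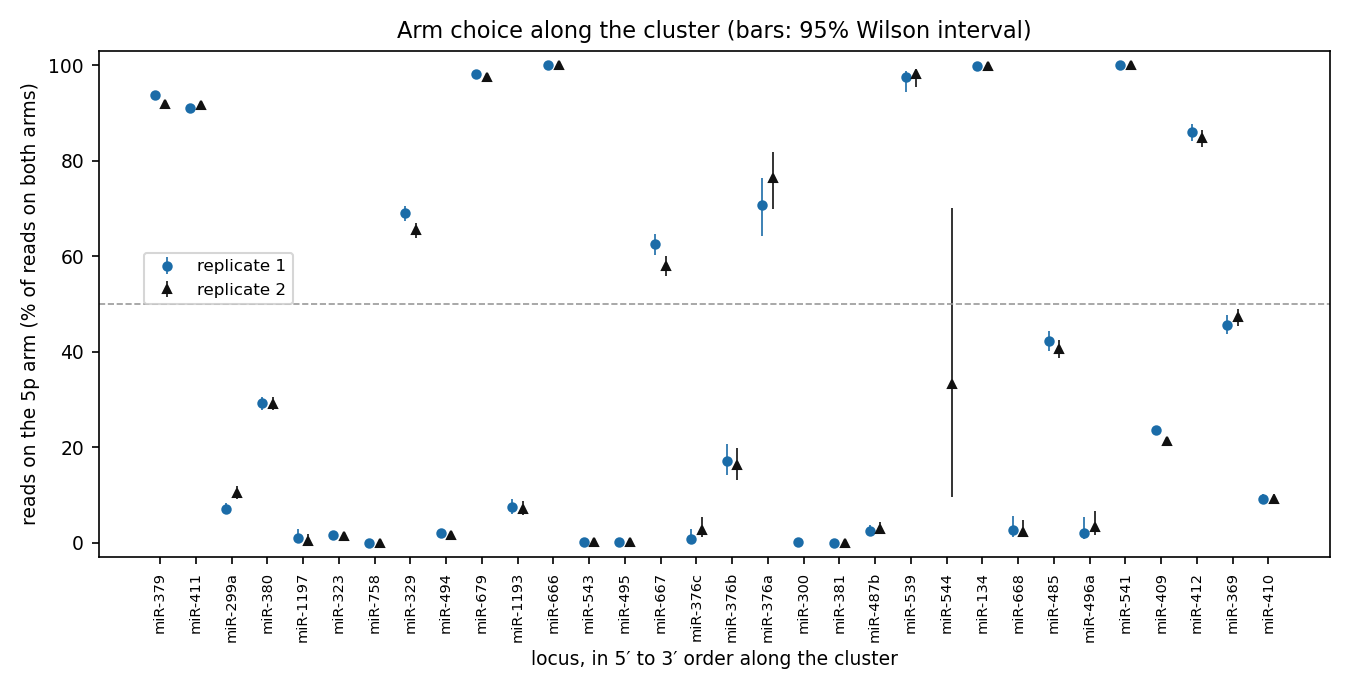
Reads on the 5p arm as a percent of the reads on both arms for each locus in order along the cluster, circles for replicate 1 and triangles for replicate 2, with 95% Wilson intervals and a dashed line at 50%. Most loci sit near 0% or 100%, while miR-380, miR-329, miR-667, miR-376a, miR-485 and miR-369 lie between 29.1% and 76.4%. miR-544, with 6 reads in replicate 2 only, lies at 33.3%. miR-376b and miR-409 lie between 16.3% and 23.7%, and miR-412 at 86.0% and 84.6%.

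Star reads, as miRDeep2 named them and so with the 3p arm of miR-485, made up 5.08% of the arm reads of the cluster in replicate 1 and 5.80% in replicate 2, against 2.69% and 2.92% over all 563 loci and 2.54% and 2.40% in the 13 upstream loci of the domain. Per locus, the arm with fewer reads held a median of 2.68% of the reads on both arms over 31 loci, from 0% to 46.5%, and the median over the 471 loci of the table was 1.56%. These medians were not matched for depth, and many loci of the table had few reads of any kind. In 9 of the 31 loci, 29.0%, this minor arm reached 10% on average, close to the 27.0% of the table. Of the star reads, miR-409 alone gave 5174 of 16039 in replicate 1 and 5041 of 16954 in replicate 2, and without it they made up 3.69% and 4.43% of the arm reads.

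The most even locus was miR-369, with 1213 reads on the 5p and 1441 on the 3p arm in replicate 1 and 1365 and 1526 in replicate 2. Its minor arm held 46.5% ± 1.1 (SD, n = 2), and its 5p interval stayed below 50% in each replicate, with upper bounds of 47.6% and 49.0%. miR-667 followed, with 1238 reads on the 5p arm in each replicate and 744 and 900 on the 3p arm, a minor arm of 39.8% ± 3.2. miR-329 had 2473 and 2271 5p reads beside 1114 and 1201 3p reads, 32.8% ± 2.5. miR-380 had 2988 and 2974 3p reads beside 1231 and 1223 5p reads, 29.2% ± 0.03 (SD, n = 2).

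Among the low loci, miR-376a had 149 and 146 reads on the 5p arm and 62 and 45 on the 3p arm, a minor arm of 26.5% ± 4.1, and miR-376b had 91 and 76 5p reads beside 437 and 391 3p reads, 16.8% ± 0.7 (SD, n = 2). The 3p star of miR-412 had 198 and 238 reads, 14.7% ± 1.0 of its arm reads. miR-299a passed 10% in 1 replicate only, at 7.16% and 10.5%. In miR-409 the 5p arm made up 22.5% ± 1.7 (SD, n = 2), and with 5174 and 5041 reads this star strand was more abundant than the main arm of 20 of the 30 loci. The star strands miR-411-3p, with 2148 and 2409 reads, and miR-379-3p, with 1995 and 2111, exceeded the main arms of 16 and 15 loci.

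At other loci hardly any star strand was seen. miR-381 had 8 and 6 star reads beside its 87372 and 76801 mature reads, a minor arm of 0.00848%, and miR-541 had 24 and 32, or 0.0527%. miR-495 had 6 and 5 star reads and miR-543 had 17 and 25. miR-758-5p had 0 of 9639 and 0 of 10243 arm reads, which allows up to 0.0311% and 0.0293%. miR-666-3p had 0 of 1724 and 0 of 1808, which allows up to 0.174% and 0.166%. These limits stand for 3 reads and cover counting error only. They hold for the predicted arms, which start 1 nt before RefSeq in miR-758-5p and 3 nt after it in miR-666-3p. Loci without star reads were 2 in each replicate, 6.45% of the listed cluster loci, against 36.2% and 33.2% of all loci, many of which had few reads of any kind. Across the 30 loci the Spearman coefficient of the minor-arm percentage was -0.32 with the share and 0.18 with the position, given as a description.

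Loop reads were rare. Of all reads on cluster hairpins 21 in replicate 1 and 20 in replicate 2 lay on the loop, or 0.00664% and 0.00684%, against 0.0130% and 0.0118% over all loci. They came from 2 loci only, miR-381 with 13 and 12 and miR-134 with 8 and 8. The upstream loci of the domain had 0.

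**Figure D3:**
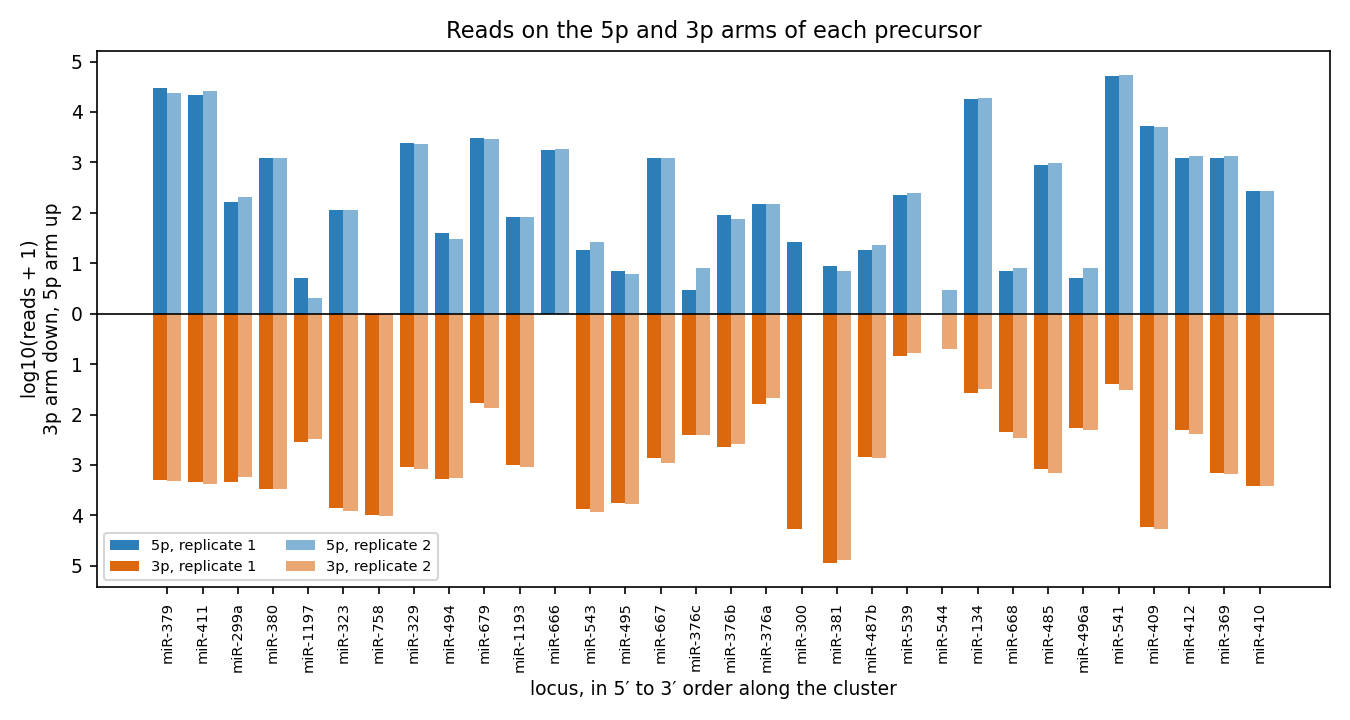
Reads on the 5p arm (upward) and on the 3p arm (downward) of each locus as log10(reads + 1), in order along the cluster, dark bars for replicate 1 and light bars for replicate 2. Star strands of miR-379, miR-411 and miR-409 reach the height of many main arms, and miR-300 and miR-544 lack the bars of the replicate in which they were not listed.

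Both arms mostly began where the reference does. RefSeq gives a mature sequence (build GRCm38.p6) for 60 of the 64 arms. The table's sequence had the same 5′ end in 27 of 30 main arms and in 21 of 30 minor arms. The 3 main arms with another start were miR-679-5p, 2 nt earlier than RefSeq, miR-496a-3p, 2 nt later, and miR-485-3p, 3 nt later. They are shown as the table and RefSeq give them, with bases 2 to 8 in capitals, because a moved start gives another seed:
miR-679-5p, table: uUGGACUGugaggugacucuugg
miR-679-5p, RefSeq: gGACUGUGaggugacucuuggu
miR-496a-3p, table: aGUAUUACauggccaaucucc
miR-496a-3p, RefSeq: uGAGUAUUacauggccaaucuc
miR-485-3p, table: cAUACACGgcucuccucucu
miR-485-3p, RefSeq: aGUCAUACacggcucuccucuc

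The reads behind these sequences were 3035 and 2860 for miR-679-5p, 185 and 205 for miR-496a-3p and 1197 and 1426 for miR-485-3p. The tables hold 1 sequence per arm, so the spread of read ends around it was not measured, and for arms without reads, such as miR-758-5p, the sequence is the predicted partner. The main arm of miR-485 also starts inside the RefSeq sequence, so reads that begin at the RefSeq start cannot be told from these in the tables.

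Overlapping entries touched 4 loci, miR-379, miR-411, miR-381 and miR-485. In each of them 2 entries held the same mature reads, and the entry with more reads over all parts was kept. For miR-379 the kept entry had 1995 and 2111 star reads and a score of 16000 and 13000, while the other had 10 and 5 star reads and a score of 1.7 in both. For miR-411 the kept entry had 2148 and 2409 star reads and the other far fewer. That second entry scored 11000 in replicate 1 and -2.7 in replicate 2, while its star reads numbered 11 and 10 and its mature reads 21680 and 26292. The second entry of miR-381 had 0 star reads and scored -3.8 in both. Kept entries could score low too. Of the 31 loci listed in each replicate, 24 and 25 scored at least 100. Lower ones included miR-376a at 0.4 in both, miR-666 at -1.2 and 2.5, and miR-300 at 2.2 in replicate 1. With every entry counted, the cluster share became 8.64%.

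In the comparison of the replicates, miR-411-5p, miR-323-3p and miR-543-3p took a higher share of reads in replicate 2 and miR-379-5p, miR-299a-3p and miR-381-3p a lower one. Of the 30 cluster loci tested, 15 differed between the replicates by the exact binomial test at an adjusted p under 0.05, 50% beside 40.8% of the 392 loci tested in the whole table. Of these 12 were higher in replicate 2, 40%, beside 26.5% of all loci, and 3 were higher in replicate 1, 10%, beside 14.3%. Depth was not matched, and a deeper locus passes on a smaller difference. The median cluster locus had 2000.5 and 1802 mature reads, against 322 and 339.5 over all loci listed in both replicates. With TMM or DESeq2 size factors in place of the read totals 12 loci passed, of which 7 were higher in replicate 2 and 5 in replicate 1. The test compares 2 libraries of the same kind of tissue by counting error alone, and the differences were small, with a median absolute log2 ratio of 0.12 in the cluster and 0.18 over all tested loci.

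miR-379-5p had a log2 ratio of replicate 2 over replicate 1 of -0.32 (95% exact interval -0.35 to -0.30, adjusted p = 8.11e-147, exact binomial test). Its neighbour miR-411-5p went the other way with 0.31 (0.28 to 0.34, adjusted p = 1.88e-120, exact binomial test). These hairpins lie 1067 bp apart and were among the highest of the cluster. miR-299a-3p, 398 bp further on, was at -0.27 (adjusted p = 2.02e-08, exact binomial test). miR-323-3p was at 0.27 (adjusted p = 1.11e-30) and miR-543-3p at 0.23 (adjusted p = 9.82e-24, both exact binomial tests). These were the 5 largest ratios among the 20 loci that had 1000 or more mature reads in each library. miR-668-3p, with 219 and 294 reads, had the largest ratio of the tested cluster loci, 0.46 (0.20 to 0.72, adjusted p = 0.00138, exact binomial test).

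miR-541-5p differed by 0.07 (0.05 to 0.09, adjusted p = 3.88e-15, exact binomial test), and with TMM the ratio was 0.01 (adjusted p = 0.216). miR-381-3p was at -0.15 (-0.17 to -0.14, adjusted p = 1.16e-102, exact binomial test), and the ratio had the same sign with TMM, at -0.21. Replicate 1 also lists miR-300-3p, which differs from miR-381-3p by a single base. In replicate 1 the reads of both loci summed to 106441, a share of 2.37%. In replicate 2 only miR-381-3p was listed, with 76801 reads and a share of 1.75%. The log2 ratio would be -0.44 if the unlisted miR-300-3p is taken to have no reads there. Whether a read of 1 of these miRNAs can be assigned to the other in the tables was not tested. miR-134-5p, miR-409-3p, miR-758-3p, miR-495-3p, miR-485, miR-412-5p and miR-1193-3p also passed the test, all higher in replicate 2 by 0.07 to 0.19, and miR-410-3p, the last locus, was at 0.04 (-0.04 to 0.11, adjusted p = 0.530, exact binomial test). miR-495-3p, miR-485, miR-412-5p, miR-1193-3p and miR-541-5p did not pass with TMM or with DESeq2 size factors.

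**Figure D4:**
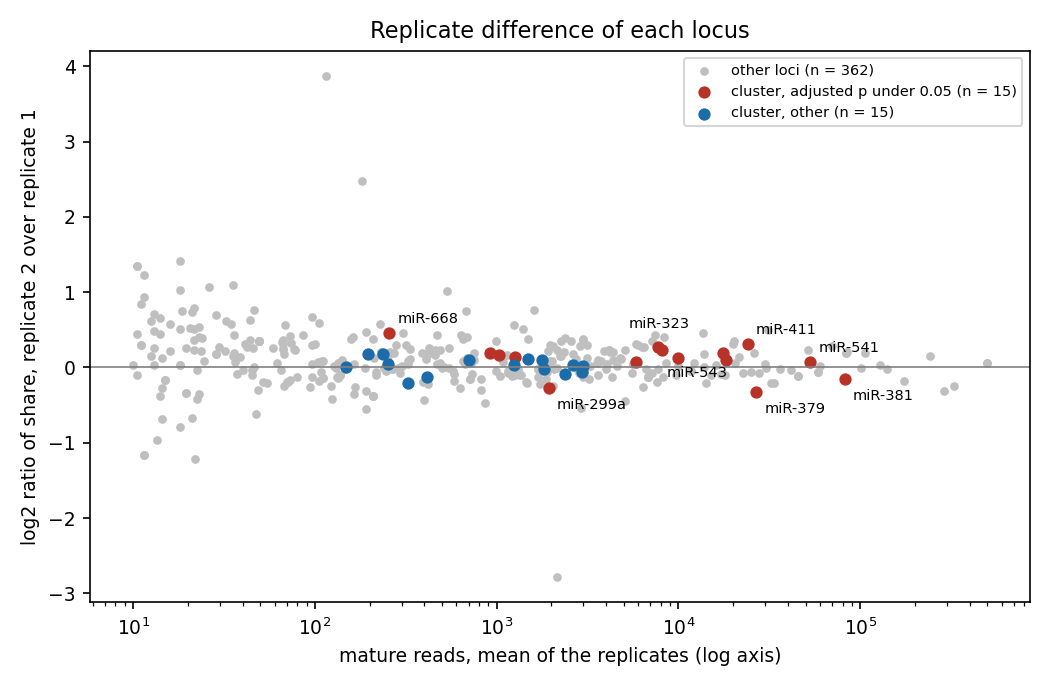
Log2 ratio of the share in replicate 2 over replicate 1 against the mean mature reads (log axis) for the 392 tested loci, with the 30 cluster loci coloured by whether they passed the exact binomial test. The cluster loci lie between -0.32 and 0.46, within the band of other loci of the same depth.

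The main arm was the same in both replicates at every locus listed in both. The 5p percentage differed in 5 of 30 cluster loci by Fisher's exact test, 16.7%, beside 10.4% of the 347 loci tested in the table. Depth was not matched here either. The median difference was 0.63 percentage points and the highest 5.82, at miR-376a, which did not pass with its 149 and 146 reads on the 5p arm (adjusted p = 0.827, Fisher's exact test). The 5 loci were miR-379, where the 5p percentage was 93.8% and 91.8% (adjusted p = 7.48e-19), miR-409, with 23.7% and 21.3% (adjusted p = 2.15e-08), miR-299a, with 7.16% and 10.5% (adjusted p = 0.00263), miR-329, with 68.9% and 65.4% (adjusted p = 0.0214), and miR-667, with 62.5% and 57.9% (adjusted p = 0.0332, all Fisher's exact tests). miR-411 had 91.0% and 91.6% (adjusted p = 0.106, Fisher's exact test).

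The 13 loci of the domain that lie upstream of the cluster, from miR-770 to miR-370, held 9.17% and 10.2% of mature reads, more than the 32 cluster loci in both replicates. miR-127-3p, made antisense to the imprinted gene Rtl1, alone held 5.48% ± 0.40 (SD, n = 2). Of the 12 upstream loci tested, 10 differed between the replicates by the exact binomial test, 83.3% beside the 40.8% of all loci, and 9 of them, 75% of those tested, were higher in replicate 2 beside 26.5%. With TMM or DESeq2 size factors 8 passed, 6 higher in replicate 2 and 2 in replicate 1. Depth was not matched in this comparison. The mature parts had a median GC content of 47.6% in the cluster, 61.9% in the upstream loci and 50% over all loci. Whether the base content bears on the levels was not tested.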

How the data were processed

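The authors extracted total RNA of E9.5 hearts with Trizol, made TruSeq small RNA libraries, sequenced single-end reads of 50 nt and aligned the cleaned reads of each replicate on its own to mm9 using miRDeep2. They deposited raw counts of reads per known precursor, split into mature, loop and star reads, and a miRDeep2 score, here used only as a label. Versions and trimming are not given in the sources used here. Counts that share reads between entries with the same sequence cannot be split, and each locus keeps the entry with the highest sum of reads. Entries of the replicates were paired at 50% overlap. Arms were read from the place of the sequence in the precursor. Shares are percents of the mature reads over all loci, with 95% Wilson intervals for counting error. Exact binomial tests covered loci in both replicates with at least 20 mature reads in sum, and Fisher's exact tests those with at least 20 arm reads in each, two-sided, with Benjamini-Hochberg adjustment over all loci of the table. Both tests were first checked on simulated data with known changes and counting error only, so the check does not cover spread between libraries. Scaling alternatives came from edgeR 4.0.16 (TMM) and DESeq2 1.42.0 under R 4.3.3, other steps from Python 3.11.15 with scipy 1.17.1. Named loci were the 10 highest, the first and last, miR-541, those with overlapping entries, those in 1 replicate, those with a minor arm of at least 10%, the 5 largest ratios and those that share seeds or whose arm differs from the name. Members and lists were chosen with earlier results of these data known. Hairpins of the window other than the 32 loci were not analysed here.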

Additional observations from a re-analysis of the deposited data

How the results depend on the processing

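Of 31 alternatives over 6 results, 26 were counted as unchanged. This meant counts within 1.5 times or values within the SD between the replicates. For the cluster share, leaving out a replicate could not exceed that SD, because the main value is the mean of both. The share of the 5 highest loci is also such a mean. Only a change in which loci rank highest could move it further. Those alternatives are therefore no real test of these shares. The cluster share of 6.48% moved to 8.64% with every listed entry counted and to 8.08% with each mature sequence counted a single time, and ranged from 6.27% to 6.68% when either replicate was left out. The share of the 5 highest loci, 71.0%, moved to 64.2% with every entry counted and to 73.3% over the loci listed in both replicates, a setting chosen after seeing the data, and ranged from 70.2% to 72.2% without either replicate. The median minor-arm share, 2.68%, ranged from 2.60% to 3.13% without either replicate. The number of loci that differed between the replicates, 15, ran from 12 with TMM and with DESeq2 size factors to 20 with the cluster's own total. That total includes miR-300, which was listed in replicate 1 only. With the total of the cluster loci listed in both replicates, also chosen after seeing the data, 14 passed. Under all 4 scalings first compared, 10 loci passed. No locus passed in opposite directions. The 11 mainly 5p loci and the 5 loci with a different 5p percentage kept their counts in every alternative tried for them. Changed read minima hardly test these counts. With no minimum or at least 100 arm reads, Fisher's test covered the same 30 loci, so only the adjustment could move its count. For the mainly 5p loci these minima added miR-544 or left the 31 loci as they were. The changed minima of the replicate test also kept its 30 loci. With 2 libraries of 1 group, each SD rests on 2 values and is a poor estimate of the spread. No paired analysis was possible because there is only 1 group of samples.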
